A study of Homo sapiens with 8 samples.

Results

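The 35 genes described here code for proteins of the lysosome and of autophagy. They were picked by name for their function, but with earlier results of these data known. They fall into 8 roles, namely 4 genes of the lysosomal membrane and of transport across it (LAMP1, LAMP2, NPC1, MCOLN1), 5 cathepsins (CTSA, CTSB, CTSD, CTSL, CTSZ), 7 glycosidases (GLA, GLB1, GUSB, HEXA, NAGLU, NEU1, GAA), 3 genes of lipid handling (PSAP, NPC2, LIPA), 5 genes of the proton pump or V-ATPase (ATP6V0D1, ATP6V1A, ATP6V1B2, ATP6V1H, ATP6AP1), the transcription factors TFEB and TFE3, 4 genes of autophagy initiation and nucleation (ULK1, WIPI1, BECN1, UVRAG) and 5 of the ATG8 family, its conjugation and its cargo receptor (SQSTM1, MAP1LC3B, GABARAPL1, GABARAP, ATG5). For each of them the transcript with the highest mean FPKM over the 8 libraries was taken, FPKM being fragments per kilobase of transcript scaled to the reads of the library. All 35 were found among the 27946 genes of the deposited table, and all 35 were among the 13790 genes with an FPKM of 0.5 or more in 2 or more libraries, which were tested. TFEB passed that filter through the control and ΔSE12313-b libraries, since its FPKM was below 0.5 in every ΔE2 library. Its calls as lower in ΔE2, alone and within the counts below, are therefore a description.

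The cells were EA.hy926, an established line made by fusing umbilical vein endothelial cells with the lung carcinoma line A549. The study asked what is lost when parts of an endothelial super-enhancer are cut out with Cas9 protein and guide RNAs. In 3 clonal lines the enhancer E2 was missing (ΔE2) and in 3 others SE12313-b, a further enhancer of that super-enhancer that had been inactive in reporter assays (ΔSE12313-b), and 2 libraries came from control EA.hy926 cells. Total RNA depleted of rRNA was sequenced. Each clone was grown from a single cell, whereas the control cells of the proliferation assay are described as a guide-transfected culture kept beside the clones, and it is not stated if that culture gave the control RNA, nor if the 2 control libraries were made from separate cultures. The p values below therefore measure the spread between these libraries, which for the controls may be technical.

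Lysosomes are acidic compartments in which hydrolases break down proteins, glycans and lipids that arrive by endocytosis or by autophagy, and the V-ATPase pumps the protons that keep them acidic. Autophagy encloses cytoplasm in a double membrane decorated with proteins of the ATG8 family, and the closed autophagosome then fuses with a lysosome. Many of the genes involved are targets of TFEB and TFE3, factors of the MITF/TFE family that bind the CLEAR element in promoters and are held in the cytoplasm by mTORC1 when nutrients are plentiful.

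Promoters of the members were searched for the E-box CACGTG, for TCACGTGA (the core of the CLEAR element, which contains the E-box), for TGATGCAA (a composite site of ATF4 and CEBP) and for GTAAACA (a FOXO site), on both strands. RefSeq windows of GRCh38.p14, from 250 bases before the annotated start to 50 after it, were at hand for 26 of the 35 members and not for PSAP, ATP6V1B2, HEXA, UVRAG, LAMP2, NAGLU, CTSB, ATP6V1A and ATP6V1H. The E-box was present in 7 of the 26 windows (26.9%), against 7.26% of all 35116 windows and 9.58% of the 14113 windows of genes tested. TCACGTGA was present in 5 of the 26 (19.2%), against 0.98% of all windows and 1.74% of those of genes tested. These 5 are shown from 100 bases before to 10 bases after the start, with each E-box in capitals, because their genes went in different directions in the deleted cells. The windows lie at chr13:113297139-113297248 (LAMP1), chr19:7522524-7522633 (MCOLN1), chr20:45891235-45891344 (CTSA) and chr17:80101481-80101590 (GAA) on the plus strand and at chr16:67481148-67481257 (ATP6V0D1) on the minus strand.
LAMP1: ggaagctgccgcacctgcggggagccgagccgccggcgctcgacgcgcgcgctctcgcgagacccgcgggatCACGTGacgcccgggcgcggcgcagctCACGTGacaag
MCOLN1: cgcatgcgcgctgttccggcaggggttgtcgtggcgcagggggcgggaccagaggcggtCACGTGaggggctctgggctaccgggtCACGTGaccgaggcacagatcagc
CTSA: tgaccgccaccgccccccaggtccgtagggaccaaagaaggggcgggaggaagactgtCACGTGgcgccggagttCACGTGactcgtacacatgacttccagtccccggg
GAA: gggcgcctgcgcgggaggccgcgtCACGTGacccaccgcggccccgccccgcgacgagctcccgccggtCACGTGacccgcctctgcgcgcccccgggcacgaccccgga
ATP6V0D1: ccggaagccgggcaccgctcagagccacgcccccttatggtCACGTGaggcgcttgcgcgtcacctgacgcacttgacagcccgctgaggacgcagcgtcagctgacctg
LAMP1, MCOLN1 and GAA each hold 2 copies of TCACGTGA in this stretch, and CTSA and ATP6V0D1 hold 1. LAMP1 has 4 further E-boxes upstream of it. CTSD and NEU1 hold an E-box outside TCACGTGA, at -47 and -126 relative to the start. TGATGCAA was found in none of the 26 windows, against 0.866% of all windows, and GTAAACA in 1, that of CTSL, against 3.42%. A match is a run of letters and was not tested as a binding site. Many genes of these pathways are known targets of the factors that bind the CLEAR element. A share of TCACGTGA above the background thus follows from how the genes were chosen. In 22 of the 26 windows the transcribed part lay in a Gencode transcript of the gene.

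Sequencing depth ran from 12067557 to 19101159 reads per library, with 7802451 to 13374308 of them assigned to genes of the table. The 2 control libraries differed by little more than counting noise over all genes (chi-square per degree of freedom 1.19), whereas pairs of clones of 1 deletion gave values from 3.98 to 22.8. Endothelial markers (PECAM1, VWF, CDH5, TIE1, TEK, ERG but not KDR, so 6 of 7) were detected in each group, with a summed FPKM of 180 to 183 in control, 149 to 254 in ΔE2 and 158 to 208 in ΔSE12313-b libraries. Of 5 epithelial markers only KRT8 and KRT18 were detected, with a summed FPKM of 232 to 239 in control, 613 to 752 in ΔE2 and 541 to 669 in ΔSE12313-b libraries. Of the 5 leukocyte and the 5 fibroblast markers 0 reached a mean FPKM of 0.5 in any group. Proliferation markers stood far apart between control and deleted cells, with a summed FPKM of MKI67, TOP2A, CCNB1, CDK1 and MCM2 of 13.7 to 15.2 in the control, 207 to 268 in the ΔE2 and 235 to 266 in the ΔSE12313-b libraries. These sums are RNA levels and not growth rates, and the paper measured reduced proliferation and fewer cells in S phase in clones of both deletions. The difference in marker RNA runs along with every comparison against the controls below, and its part in them was not tested. Both deletions were compared with the same 2 control libraries, so their values are given side by side, and the deletions were also compared with each other directly. In bulk RNA a lower share of cells that express a gene and less of its RNA per cell cannot be told apart.

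In the control cells the members ranged from abundant transcripts to barely detected ones. PSAP was the most abundant of them with a mean FPKM of 510, above 99.4% of the genes tested, followed by CTSB with 341. SQSTM1, CTSD, NPC2, LAMP2, LAMP1, CTSZ, GABARAP, MAP1LC3B, CTSA and CTSL lay between 105 and 47.9. A middle group from GLB1 at 31.5 down to GLA at 10.1 held all 5 V-ATPase genes. NEU1, ULK1, UVRAG and MCOLN1 lay between 8.45 and 2.89, and TFEB was the lowest at 0.619, above 7.43% of the genes tested. Its relative TFE3 stood at 20.9.

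More of these genes were lower than higher in ΔE2 cells, but the counts were 8 and 8 without control library 2. More were higher than lower in ΔSE12313-b cells, which turned to 8 higher and 12 lower once each library was centred on its median. In ΔE2 cells 15 of the 35 members were lower and 7 higher than in control cells (limma on log2(FPKM + 0.1), Benjamini-Hochberg or BH adjusted p under 0.05 over all genes tested). Of all genes tested, 19.4% were lower and 34.7% higher in that comparison, whereas the members came to 42.9% and 20%. In ΔSE12313-b cells 17 members were higher and 6 lower, or 48.6% and 17.1%, near the 43% and 16.4% of all genes. With a change of at least 2-fold besides, ΔE2 had 1 member higher and 5 lower (all genes 11.2% and 8.36%), and ΔSE12313-b had 5 higher and 1 lower (all genes 14.7% and 7.83%).

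The deletions also differed from each other. When ΔE2 was set directly against ΔSE12313-b, 19 of the 35 members (54.3%) were lower in ΔE2 and 3 (8.57%) higher, against 19.3% and 6.69% of all genes tested. At 2-fold or more, 3 members were lower (PSAP, NEU1 and TFEB; all genes 2.63%) and 0 higher (all genes 1.6%). None was 2-fold higher at an unadjusted p under 0.05 either, nor by limma voom on the recovered reads. The main fit takes its spread from all 8 libraries, the close controls included. A fit of the deletions alone, of any size of change, gave 16 lower and 3 higher, against 15.2% and 5.3% of all genes. GLB1, LIPA and BECN1 lost their calls in it. The median log2 difference of the members was -0.40, against -0.11 over all genes. In the plot of fitted changes most points of that panel lie left of the dashed line.

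**Figure D1:**
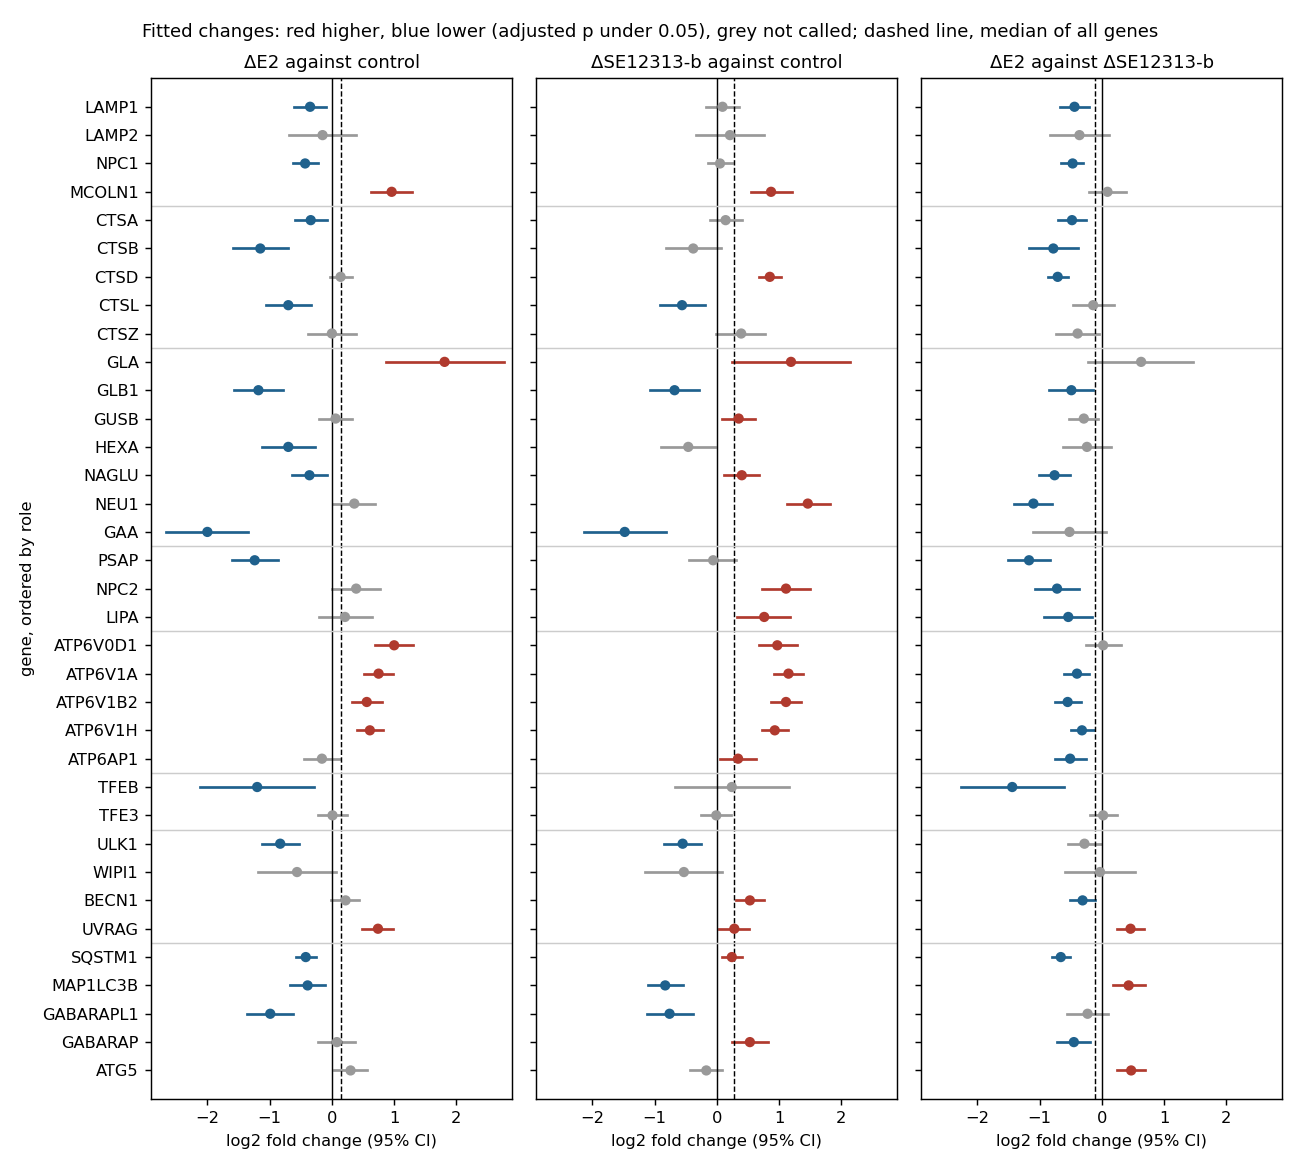
Log2 fold change (x axis, on log2(FPKM + 0.1)) of each of the 35 members (y axis, grouped by role) with its 95% confidence interval from limma, with each deletion set against control in the left and middle panels and ΔE2 set against ΔSE12313-b in the right one. Red points were called higher, blue points lower and grey points neither at a BH-adjusted p under 0.05, and the dashed line marks the median of all genes tested (0.14, 0.27 and -0.11), with 19 blue and 3 red points in the right panel.

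Over all genes tested the log2 changes had medians of 0.14 (ΔE2), 0.27 (ΔSE12313-b) and -0.11 between the deletions. FPKM are scaled to all reads of a library, so its share of reads on genes moves all genes together. That share was 8151646 of 12696169 and 7802451 of 12067557 in control. In ΔE2 it was 13374308 of 19101159, 12223245 of 17124021 and 9981747 of 13616461. In ΔSE12313-b it was 12588574 of 16085528, 11147231 of 14814153 and 12463800 of 15890263. Calls without centring include any such offset, whose part in these medians was not tested. When each library was centred on its median, the members higher and lower became 7 and 15 in ΔE2, 8 and 12 in ΔSE12313-b and 3 and 12 between the deletions, against 26.6% and 26.1% of all genes in ΔE2, 27.7% and 27.3% in ΔSE12313-b and 10.6% and 11.1% between the deletions. In ΔSE12313-b the calls of GLA, GUSB, NAGLU, LIPA, ATP6AP1, BECN1, UVRAG, SQSTM1 and GABARAP as higher were lost with this centring and those of NPC1, CTSB, HEXA, TFE3, WIPI1 and ATG5 as lower were added. Between the deletions the calls of LAMP1, GLB1, LIPA, ATP6V1A, ATP6V1H, BECN1 and GABARAP were lost. Many calls needed both control libraries. Without control library 1, 9 members were lower and 7 higher in ΔE2 and 11 higher in ΔSE12313-b, and without control library 2 these counts were 8, 8 and 10. With the pair taken as 1 library they were 9, 7 and 10. Without the first ΔE2 library 12 members were lower in ΔE2 than in ΔSE12313-b. Calls that held under all 21 alternatives numbered 14 of 22 in ΔE2 (6 higher, 8 lower), 11 of 23 in ΔSE12313-b (8 higher, 3 lower) and 7 of 22 between the deletions (0 higher, 7 lower). These 7 were NPC1, CTSD, NAGLU, NEU1, PSAP, ATP6V1B2 and SQSTM1.

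**Figure D2:**
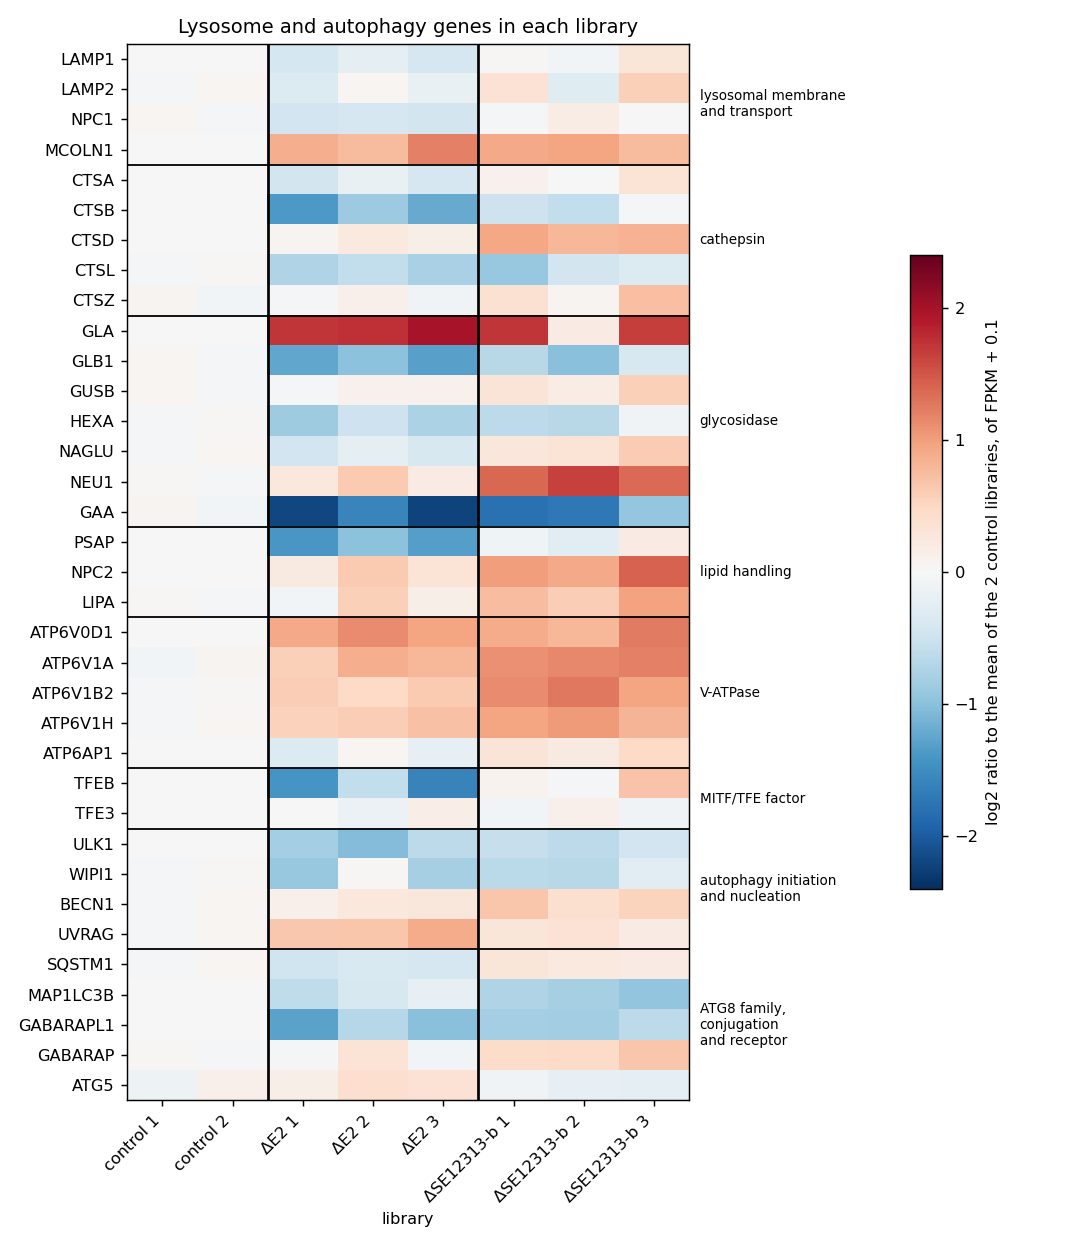
Heat map of the 35 members (rows, grouped by role) in the 8 libraries (columns), with colour giving the log2 ratio of FPKM + 0.1 to the mean of the 2 control libraries. PSAP, CTSB, GLB1 and GAA are blue in every ΔE2 column, 4 of the 5 V-ATPase genes (all but ATP6AP1) are red in every deleted library, and GLA is red in every deleted library but pale in ΔSE12313-b 2.

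Of the 4 genes of the lysosomal membrane, only MCOLN1 rose in either deletion. MCOLN1 codes for TRPML1, the channel that releases calcium from lysosomes. Its FPKM was 2.91 and 2.87 in the control libraries, 5.41, 4.99 and 6.84 in ΔE2 and 5.49, 5.64 and 4.96 in ΔSE12313-b. Both groups of clones lay above the controls without overlap, with log2 fold changes of 0.96 ± 0.14 (SE) in ΔE2 and 0.87 ± 0.14 in ΔSE12313-b (limma, BH-adjusted p = 0.000868 and 0.00116). LAMP1, the most used marker of the lysosomal membrane, was lower in ΔE2 by a log2 fold change of -0.35 ± 0.11 (limma, BH-adjusted p = 0.0301), a call lost without either control library and without ΔE2 library 1 or 3. In ΔSE12313-b it stood at 0.09 ± 0.11, or at -0.42 after quantile normalization. NPC1, which exports cholesterol from the lysosome, was lower in ΔE2 by -0.43 ± 0.09 (limma, BH-adjusted p = 0.00379) and stood at 0.05 ± 0.09 in ΔSE12313-b, where centring (-0.24) and quantile normalization (-0.40) turned it. The direct difference of NPC1 between the deletions was -0.47 ± 0.08 (limma, BH-adjusted p = 0.00407).

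LAMP2, the second major membrane glycoprotein and the receptor of chaperone-mediated autophagy in its A form, passed the test in no comparison (log2 fold changes -0.15 ± 0.23 and 0.21 ± 0.23). The ΔSE12313-b clones spread from 70.1 to 128 FPKM around controls of 83.6 and 88.4. Without ΔSE12313-b library 2, which was the lowest, LAMP2 was called higher in ΔSE12313-b (0.46; limma, BH-adjusted p = 0.026). Of its 3 transcripts the B form had the highest FPKM in control cells (86.0, against 31.1 for A and 46.6 for C), and their log2 fold changes lay within -0.22 to -0.15 in ΔE2 and 0.02 to 0.21 in ΔSE12313-b. These forms share most of their exons, so their FPKM hold common reads.

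Among the cathepsins, proteases of the lysosome lumen, CTSB fell most in ΔE2, while in ΔSE12313-b CTSL was the 1 called lower. CTSB, a cysteine protease, was the second most abundant member. Its FPKM was 339 and 343 in control, 131, 187 and 148 in ΔE2 and 242, 226 and 330 in ΔSE12313-b. Every ΔE2 value lay below every other library, and 1 of the ΔSE12313-b clones reached close to the controls. The log2 fold change was -1.15 ± 0.19 in ΔE2 (limma, BH-adjusted p = 0.00144) and -0.38 ± 0.19 in ΔSE12313-b (limma, BH-adjusted p = 0.122), where it was called lower without the third clone (-0.54; limma, BH-adjusted p = 0.0207). ΔE2 was lower than ΔSE12313-b by -0.78 ± 0.17 (limma, BH-adjusted p = 0.0135).

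CTSD, the main aspartic protease, went the other way in ΔSE12313-b. Its FPKM was 88.5 and 89.2 in control, 92.7, 104 and 97.9 in ΔE2, and 169, 155 and 158 in ΔSE12313-b, the last group standing apart from both others. The log2 fold change of 0.85 ± 0.07 in ΔSE12313-b (limma, BH-adjusted p = 4.77e-05) held under every alternative, while the value in ΔE2 was 0.14 ± 0.07 and turned to -0.27 with quantile normalization. CTSL, a cysteine protease, was lower in both deletions, by -0.70 ± 0.16 and -0.56 ± 0.16 (limma, BH-adjusted p = 0.00688 and 0.0161). Without control library 2 both calls of CTSL were lost, and without control library 1 that in ΔSE12313-b. CTSA, a carboxypeptidase that also shields GLB1 and NEU1 from degradation, was lower in ΔE2 by -0.34 ± 0.11 (limma, BH-adjusted p = 0.033), a call lost without either control library and without ΔE2 library 1 or 3. In ΔSE12313-b CTSA stood at 0.14 ± 0.11, and at -0.34 after quantile normalization. On the opposite strand, exons of NEURL2, at 1.58 FPKM in control cells, overlap 31.4% of the CTSA transcript and those of PLTP, at 55.7 FPKM, overlap 6.55%, and the strand setting behind the FPKM is not given in the sources used here. CTSZ, an exopeptidase, was not called in either deletion (0.00 ± 0.17 and 0.39 ± 0.17). Without ΔSE12313-b library 2 CTSZ was called higher in that deletion (0.54; limma, BH-adjusted p = 0.0117).

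The 7 glycosidases, which strip sugars from glycolipids and glycoproteins, went furthest from control in both directions. GAA, the acid alpha-glucosidase that degrades glycogen in lysosomes, had the largest fall of the 35. Its FPKM was 23.6 and 21.8 in control, 4.88, 7.45 and 4.78 in ΔE2 and 6.46, 6.81 and 11.9 in ΔSE12313-b. All 6 clones lay below both controls, and the log2 fold changes were -2.0 ± 0.28 in ΔE2 and -1.48 ± 0.28 in ΔSE12313-b (limma, BH-adjusted p = 0.0007 and 0.00266). The deletions were not told apart by the direct test, with a difference of -0.52 and a 95% interval of -1.11 to 0.07 (limma, BH-adjusted p = 0.172).

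GLA, alpha-galactosidase A, which removes the terminal galactose of globotriaosylceramide, had the largest rise in ΔE2. Its FPKM was 10.1 in each control library, 33.3, 34.2 and 40.2 in ΔE2, and 33.3, 11.5 and 32.2 in ΔSE12313-b. Of the 6 clones 5 stood at more than 3 times the control level, and ΔSE12313-b clone 2 stood close to it. The log2 fold change was 1.81 ± 0.41 in ΔE2 (limma, BH-adjusted p = 0.00666) and 1.19 ± 0.41 in ΔSE12313-b (limma, BH-adjusted p = 0.0358). The latter call was lost in 13 of the 21 alternatives, among them those without either control library, ΔE2 library 1 or 3, or ΔSE12313-b library 1 or 3. In ΔSE12313-b clone 2 the 62 other genes tested within 10 Mb of GLA on Xq22.1 stood at a median of -0.74 relative to all genes, against 0.05 and 0.27 in the other clones of that deletion.

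GLB1, the acid beta-galactosidase, read 32.4 and 30.7 FPKM in control, 13.2, 15.9 and 12.8 in ΔE2 and 19.8, 15.8 and 24.04 in ΔSE12313-b. All clones lay below the controls, by log2 fold changes of -1.18 ± 0.17 and -0.68 ± 0.17 (limma, BH-adjusted p = 0.000799 and 0.00958), the second lost without control library 1. Its direct difference of -0.49 ± 0.15 was at the edge of the test (limma, BH-adjusted p = 0.0499) and was lost in 16 alternatives. HEXA, the alpha subunit of hexosaminidase A, which acts on GM2 ganglioside, was lower in ΔE2 by -0.70 ± 0.19 (limma, BH-adjusted p = 0.0142), a call lost without either control library. In ΔSE12313-b HEXA stood at -0.46 ± 0.19 and was called lower without clone 3 (-0.64; limma, BH-adjusted p = 0.00397).

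NEU1, the lysosomal sialidase, rose in ΔSE12313-b and not detectably in ΔE2. Its FPKM was 8.63 and 8.28 in control, 10.0, 13.2 and 9.72 in ΔE2 and 22.2, 26.7 and 21.8 in ΔSE12313-b. The 3 groups did not overlap. The log2 fold change was 1.46 ± 0.15 in ΔSE12313-b (limma, BH-adjusted p = 9.71e-05), the largest rise of a member in that deletion, and 0.36 ± 0.15 in ΔE2 (limma, BH-adjusted p = 0.0724). Between the deletions the difference was -1.10 ± 0.13 (limma, BH-adjusted p = 0.00144). The deposited table gives 8 as the number of copies of the NEU1 transcript and 1 for each other member, so its reads may have been split or shared.

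NAGLU and GUSB, which act on heparan sulfate and on glucuronides, had smaller values. NAGLU was 1 of 2 members called in opposite directions, at 9.91 and 10.6 FPKM in control, 7.46, 8.67 and 7.84 in ΔE2 and 12.3, 12.8 and 15.7 in ΔSE12313-b. The groups did not overlap, and the log2 fold changes were -0.36 ± 0.12 and 0.40 ± 0.12 (limma, BH-adjusted p = 0.0372 and 0.0216), both lost without either control library and the first also without ΔE2 library 1 or 3. The direct difference of -0.76 ± 0.11 held under every alternative (limma, BH-adjusted p = 0.00262). GUSB was higher in ΔSE12313-b by 0.35 ± 0.11 (limma, BH-adjusted p = 0.029), which turned to -0.11 with quantile normalization and lost its call without either control library or ΔSE12313-b library 1. In ΔE2 GUSB stood at 0.06 ± 0.11.

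**Figure D3:**
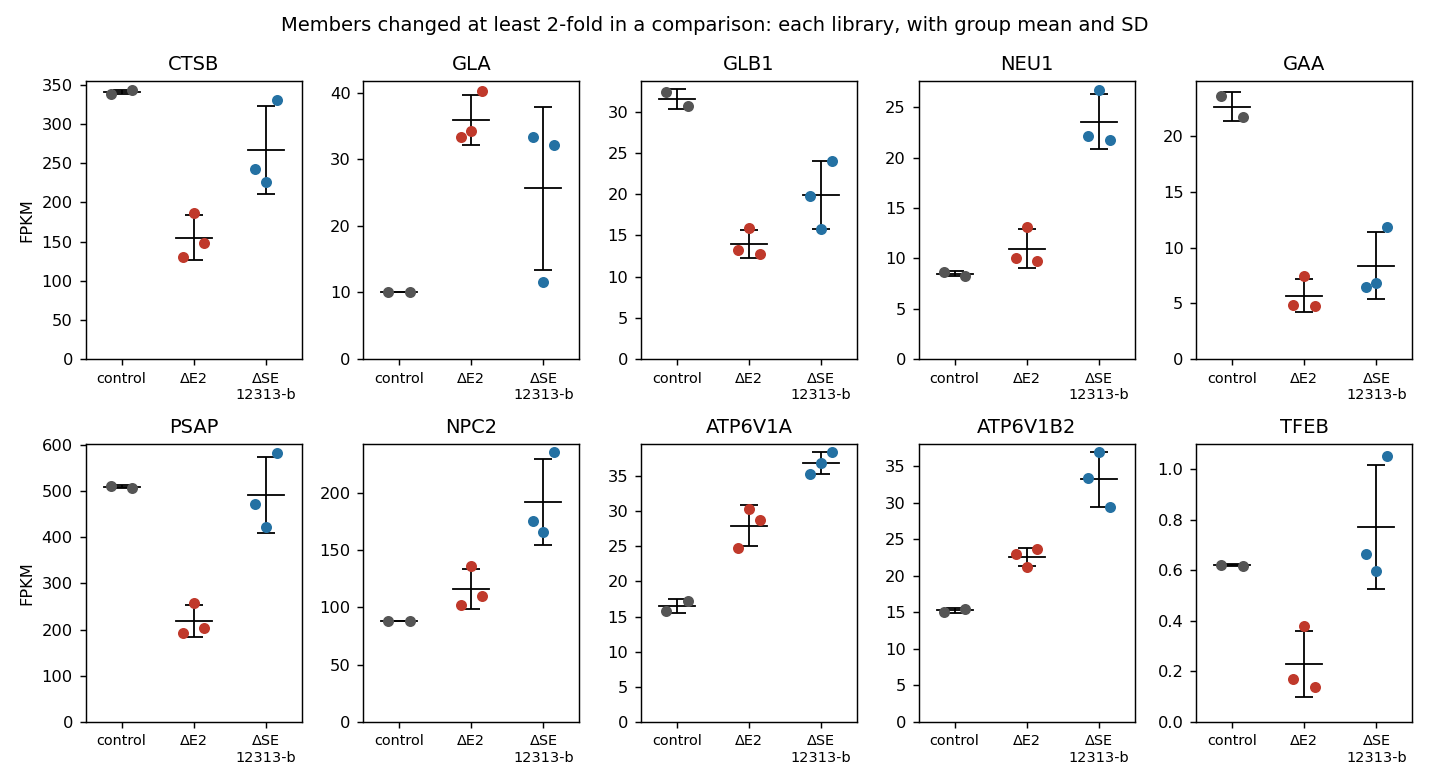
FPKM (y axis, from 0) of the 10 members called with a change of at least 2-fold in any of the 3 comparisons, as 1 point for each library (2 control, 3 ΔE2, 3 ΔSE12313-b), with the group mean and its SD as horizontal line and whiskers. PSAP, CTSB and TFEB are lowest in ΔE2, NEU1 is high in ΔSE12313-b, and 1 ΔSE12313-b point of GLA at 11.5 lies near the controls at 10.1.

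Of the genes that handle lipids, PSAP fell in ΔE2 while NPC2 and LIPA rose in ΔSE12313-b. PSAP codes for prosaposin, the precursor of the saposins that present sphingolipids to their hydrolases. Its FPKM was 512 and 507 in control, 193, 258 and 204 in ΔE2 and 472, 422 and 583 in ΔSE12313-b. Every ΔE2 clone lay far below all other libraries, and the ΔSE12313-b clones lay on both sides of the controls. The log2 fold change was -1.24 ± 0.16 in ΔE2 (limma, BH-adjusted p = 0.00046) and -0.06 in ΔSE12313-b, with a 95% interval of -0.44 to 0.31 (limma, BH-adjusted p = 0.752). ΔE2 was lower than ΔSE12313-b by -1.17 ± 0.14 (limma, BH-adjusted p = 0.00159). The 101 other genes tested within 10 Mb of PSAP on 10q22.1 were at 0.43 relative to all genes in ΔSE12313-b and 0.05 in ΔE2. With each gene centred on such neighbours PSAP stood at -0.80 in ΔSE12313-b (limma, BH-adjusted p = 0.00437) and at -0.66 between the deletions (limma, BH-adjusted p = 0.0284).

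NPC2, which hands cholesterol to NPC1 in the lysosome lumen, read 87.9 and 87.8 FPKM in control, 102, 136 and 110 in ΔE2 and 175, 166 and 236 in ΔSE12313-b. The 3 groups did not overlap. The log2 fold change was 1.11 ± 0.17 in ΔSE12313-b (limma, BH-adjusted p = 0.000806) and 0.39 ± 0.17 in ΔE2 (limma, BH-adjusted p = 0.0839), where it was called without ΔSE12313-b library 3 (limma, BH-adjusted p = 0.0274), and the direct difference was -0.72 ± 0.15 (limma, BH-adjusted p = 0.0118). LIPA, the acid lipase that frees cholesterol from its esters, was higher in ΔSE12313-b by 0.76 ± 0.18 (limma, BH-adjusted p = 0.00832), a call lost without control library 2. LIPA lies on 10q23.31, where 99 neighbours were at 0.61 relative to all genes in that deletion, and centred on them LIPA stood at -0.09 (limma, BH-adjusted p = 0.699). In ΔE2 it stood at 0.21 ± 0.18.

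Of the V-ATPase genes 4 of 5 were higher in ΔE2, all but ATP6AP1, and 5 of 5 in ΔSE12313-b, of which ATP6AP1 turned with quantile normalization and with neighbour centring. Of all genes tested 34.7% and 43% were higher in these comparisons, and of 16 other V-ATPase subunits 8 were higher in each. Those higher in ΔE2 include ATP6V0A4, which reached the filter through the ΔE2 libraries alone, so its part in the count is a description. ATP6V1A, the catalytic subunit of the cytosolic V1 domain, read 15.8 and 17.3 FPKM in control, 24.7, 30.3 and 28.8 in ΔE2 and 35.3, 36.8 and 38.5 in ΔSE12313-b. ATP6V1B2, its non-catalytic partner in the V1 ring, read 15.01 and 15.46 in control, 22.9, 21.2 and 23.6 in ΔE2 and 33.4, 36.9 and 29.4 in ΔSE12313-b. For both genes the 3 groups were in the order control, ΔE2, ΔSE12313-b without overlap. In ΔSE12313-b the log2 fold changes were 1.15 ± 0.10 and 1.11 ± 0.10 (limma, BH-adjusted p = 4.59e-05 and 6.36e-05), and in ΔE2 0.75 ± 0.10 and 0.56 ± 0.10 (limma, BH-adjusted p = 0.000503 and 0.00251), the call of ATP6V1B2 in ΔE2 being lost with quantile normalization. Directly compared, ΔE2 was lower by -0.40 ± 0.09 for ATP6V1A and -0.55 ± 0.09 for ATP6V1B2 (limma, BH-adjusted p = 0.0146 and 0.00489).

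ATP6V0D1, which links the V1 domain to the membrane-bound V0 domain, read 17.5 and 17.1 FPKM in control, 32.8, 37.96 and 33.3 in ΔE2 and 32.1, 30.2 and 41.0 in ΔSE12313-b. All clones lay above the controls and those of the deletions overlapped, with log2 fold changes of 1.00 ± 0.13 and 0.97 ± 0.13 (limma, BH-adjusted p = 0.000511 and 0.000463), both just short of 2-fold, and a difference of 0.02 (95% interval -0.25 to 0.30). ATP6V1H, a regulatory V1 subunit, rose by 0.61 ± 0.09 and 0.93 ± 0.09 (limma, BH-adjusted p = 0.000801 and 7.58e-05). ATP6AP1, an accessory protein of pump assembly, stood at -0.16 ± 0.12 in ΔE2 and was higher in ΔSE12313-b by 0.34 ± 0.12 (limma, BH-adjusted p = 0.0437), which turned to -0.11 with quantile normalization and to -0.08 when centred on its neighbours. That call was also lost without either control library, ΔE2 library 3, or ΔSE12313-b library 1 or 3.

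TFEB, the factor best known as a regulator of lysosomal genes, was low everywhere and lowest in ΔE2. Its FPKM was 0.622 and 0.616 in control, 0.170, 0.380 and 0.137 in ΔE2 and 0.664, 0.596 and 1.05 in ΔSE12313-b. Behind these values stand 16 and 17 reads in the control, 4 to 14 in the ΔE2 and 19 to 36 in the ΔSE12313-b libraries. The ΔE2 clones lay below all other libraries, by a log2 fold change of -1.20 ± 0.40 from control (limma, BH-adjusted p = 0.0345) and -1.44 ± 0.36 from ΔSE12313-b (limma, BH-adjusted p = 0.022). Since TFEB was tested because it was higher in those other groups, both values are a description. The first call was lost in 10 alternatives, among them those without either control library, ΔE2 library 1 or 3, or ΔSE12313-b library 1. The second was lost in 6, among them those without ΔE2 library 1 or 3 or ΔSE12313-b library 1 or 3. TFE3, which binds the same element, read 20.9 and 21.0 FPKM in control, 21.0, 19.1 and 23.4 in ΔE2 and 19.96, 22.7 and 19.8 in ΔSE12313-b. Its groups overlapped, at log2 fold changes of 0.01 (95% interval -0.23 to 0.25) and -0.01 (-0.25 to 0.23), and relative to all genes it stood at -0.13 and -0.28. With quantile normalization TFE3 turned to -0.29 in ΔE2 (limma, BH-adjusted p = 0.045) and stood at -0.43 in ΔSE12313-b (limma, BH-adjusted p = 0.00855), where it was also called with centred libraries (-0.30; limma, BH-adjusted p = 0.0373). RNA levels do not show where either protein is in the cell, which was not measured here.

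The 5 genes whose promoters are printed above, with TCACGTGA near the start, had no common direction. GAA fell in both deletions, MCOLN1 and ATP6V0D1 rose in both, and LAMP1 and CTSA fell in ΔE2 and were not called in ΔSE12313-b, where quantile normalization turned both. Over all genes tested with TCACGTGA in the window the median change on the log2 scale came to 0.20 in ΔE2, 0.39 in ΔSE12313-b and -0.19 between the deletions, against 0.14, 0.27 and -0.11 over all genes.

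Among the genes that start autophagy, ULK1 fell in both deletions and UVRAG rose in both. ULK1, the kinase that starts autophagosome formation, was lower by -0.83 ± 0.13 in ΔE2 and -0.55 ± 0.13 in ΔSE12313-b (limma, BH-adjusted p = 0.00114 and 0.00754), the latter lost without control library 2. UVRAG, a partner of BECN1 in the lipid kinase complex, read 5.38 and 5.83 FPKM in control, 8.82, 8.94 and 10.5 in ΔE2 and 6.88, 7.14 and 6.45 in ΔSE12313-b. It was higher by 0.74 ± 0.11 in ΔE2 (limma, BH-adjusted p = 0.000721) and by 0.28 ± 0.11 in ΔSE12313-b (limma, BH-adjusted p = 0.0494), where it was at the median of all genes and turned to -0.01 with centred libraries. The call of UVRAG in ΔSE12313-b was lost in 15 alternatives, among them those without either control library, ΔE2 library 1 or 2, or ΔSE12313-b library 1 or 2. BECN1, the scaffold of that complex, was higher in ΔSE12313-b by 0.53 ± 0.10 (limma, BH-adjusted p = 0.00204) and stood at 0.22 ± 0.10 in ΔE2 (limma, BH-adjusted p = 0.0915). WIPI1, which reads the lipid on the forming membrane, was not called. Its FPKM was 16.9 and 17.8 in control, 9.14, 17.8 and 9.90 in ΔE2 and 11.0, 10.9 and 14.4 in ΔSE12313-b. ΔE2 clone 2 stood with the controls and apart from the other clones, and without it WIPI1 was called lower in ΔE2 (-0.86; limma, BH-adjusted p = 0.00264) and in ΔSE12313-b (-0.53; limma, BH-adjusted p = 0.0116). Exons of ARSG overlap 28.4% of the WIPI1 transcript on the opposite strand and those of CNTD1 37.6% of the BECN1 transcript.

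Members of the ATG8 family, the small proteins attached to the autophagosome membrane, did not move together. GABARAPL1 was lower in both deletions, by -0.99 ± 0.16 and -0.76 ± 0.16 (limma, BH-adjusted p = 0.00137 and 0.00431), and MAP1LC3B, which codes for the marker protein LC3B, was lower by -0.39 ± 0.12 and -0.83 ± 0.12 (limma, BH-adjusted p = 0.0267 and 0.000693). Relative to all genes, the 128 neighbours within 10 Mb of GABARAPL1 on 12p13.2 were at -0.34 in ΔE2 and 0.13 in ΔSE12313-b. Both calls of GABARAPL1 held under all 21 alternatives, with centring on neighbours among them. Between the deletions GABARAPL1 stood at -0.23, and at 0.37 once centred on its neighbours, and was called in neither. MAP1LC3B lies on 16q24.2, on the chromosome arm of the deleted enhancers. Its 90 neighbours within 10 Mb were at -0.08 in ΔE2 and -0.37 in ΔSE12313-b relative to all genes. MAP1LC3B itself stood at -0.53 and -1.1 on that scale. The call of MAP1LC3B in ΔSE12313-b held under every alternative, with centring on neighbours among them. The fall of MAP1LC3B in ΔE2 lost its call without either control library or ΔE2 library 1. Its near-identical retrocopy MAP1LC3B2, at 29.6 FPKM in control against 64.0 for MAP1LC3B, can share its reads, so the values of both are uncertain. GABARAP was higher in ΔSE12313-b by 0.53 ± 0.13 (limma, BH-adjusted p = 0.00766), a call lost without control library 2, and stood at 0.08 ± 0.13 in ΔE2. ATG5, which helps to attach ATG8 proteins to lipid, was not called against control (0.30 ± 0.11 and -0.17 ± 0.11; limma, BH-adjusted p = 0.0512 and 0.224). It was called higher in ΔE2 without control library 2 (0.42; limma, BH-adjusted p = 0.0483) or ΔE2 library 1 (0.38; limma, BH-adjusted p = 0.0277).

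SQSTM1 codes for p62, the receptor that ties ubiquitin-marked cargo to ATG8 proteins and is itself degraded by autophagy. Its FPKM was 102 and 108 in control, 75.5, 81.2 and 79.6 in ΔE2 and 129, 124 and 120 in ΔSE12313-b. The 3 groups did not overlap, and SQSTM1 was the other member called in opposite directions, at -0.42 ± 0.07 in ΔE2 and 0.24 ± 0.07 in ΔSE12313-b (limma, BH-adjusted p = 0.00142 and 0.017). The rise turned to -0.05 with centred libraries and to -0.31 with quantile normalization, and it was lost without control library 1 or ΔSE12313-b library 1. The direct difference of -0.66 ± 0.06 held under every alternative (limma, BH-adjusted p = 0.000684). Exons of MRNIP, at 1.73 FPKM in control, overlap 48.7% of the SQSTM1 transcript on the opposite strand.

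The 3 members higher in ΔE2 than in ΔSE12313-b were UVRAG, MAP1LC3B and ATG5, with direct log2 differences of 0.46 ± 0.09, 0.43 ± 0.11 and 0.47 ± 0.10 (limma, BH-adjusted p = 0.0109, 0.0234 and 0.0123). MAP1LC3B lost this call without ΔE2 library 2 or 3 or ΔSE12313-b library 2 or 3. All 3 lie where other genes differed the same way. Relative to all genes, the neighbours within 10 Mb of UVRAG on 11q13.5, MAP1LC3B on 16q24.2 and ATG5 on 6q21 were at 0.33, 0.34 and 0.55 between the deletions, and the genes themselves at 0.57, 0.54 and 0.58. Centred on such neighbours, 0 members were called higher by limma and 8 lower, against 5.32% and 6.18% of all genes tested, with 3 higher at an unadjusted p under 0.05, while limma voom on the recovered reads, which uses no such centring, called 3 higher. The differences of these 3 genes then stood at 0.25, 0.25 and 0.03. The 8 that remained lower with this centring were NPC1, CTSD, NAGLU, NEU1, PSAP, ATP6V1A, ATP6V1B2 and SQSTM1. This centring was chosen after the data had been seen.

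Clones of the same deletion also differed among themselves. ΔE2 clone 2 was the highest of its group in 25 of the 35 members, against 36.4% of all genes tested, and clone 1 was the lowest in 24 members (41.9% of all genes) and the highest in 0 (22.8% of all genes). The median log2 ratio of the members to the control mean was -0.33, 0.04 and -0.17 in ΔE2 clones 1, 2 and 3, while that of all genes lay between 0.12 and 0.17. In ΔSE12313-b clone 3 was the highest in 22 members (36.1% of all genes) and clone 2 the lowest in 20 (33.9% of all genes), with member medians of 0.29, 0.18 and 0.49 and all genes between 0.27 and 0.29. GAA, CTSB and PSAP were each highest in clone 2 of ΔE2 and in clone 3 of ΔSE12313-b.

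Another 171 genes of the same pathways, sorted into 5 lists, gave the wider picture, with 153 of them tested. In ΔE2, 41 were higher (26.8%) and 36 lower (23.5%), against 34.7% and 19.4% of all genes. In ΔSE12313-b 67 were higher (43.8%) and 26 lower (17%), near the 43% and 16.4% of all genes. Between the deletions 9 were higher in ΔE2 (5.88%) and 60 lower (39.2%), against 6.69% and 19.3% of all genes, with a median difference of -0.21. Other lysosomal membrane proteins had the lowest median between the deletions, -0.46, with 14 of 25 lower in ΔE2 and 1 higher, and V-ATPase subunits followed with -0.37, 9 of 16 lower and 1 higher. Of 37 other hydrolases 15 were lower and 2 higher (median -0.21), and of 32 regulators of the MITF/TFE factors and mTORC1 12 were lower and 2 higher (median -0.18). Other autophagy genes stood nearer to the background, with 10 of 43 lower and 3 higher and a median of -0.03. Against control, autophagy genes had 7 higher and 10 lower in ΔE2 and 10 higher and 12 lower in ΔSE12313-b, hydrolases 9 and 10 and then 17 and 5, membrane proteins 5 and 8 and then 13 and 2, V-ATPase subunits 8 and 2 and then 8 and 1, and the regulators 12 and 6 and then 19 and 6. Set against the shares of all genes just given, hydrolases in ΔSE12313-b (45.9% and 13.5%) and regulators in ΔE2 (37.5% and 18.8%) were near the background. V-ATPase subunits in ΔSE12313-b (50% and 6.25%) were nearer to it in the share higher. Autophagy genes in ΔE2 (16.3% and 23.3%) were nearer to it in the share lower. No list was tested as a set. Some genes in these counts reached the filter only through the group where they were high. Among them were ULK2, ATG9B and CTSO through the controls and ATP6V0A4 through ΔE2. ATP6V0A4 was also the 1 V-ATPase subunit higher between the deletions. ATP6V0D2 reached the filter in the controls and 1 ΔSE12313-b library. Their calls within the counts and shares above are therefore a description. The plot of list shares sets the counts of these lists against the shares of all genes.

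**Figure D4:**
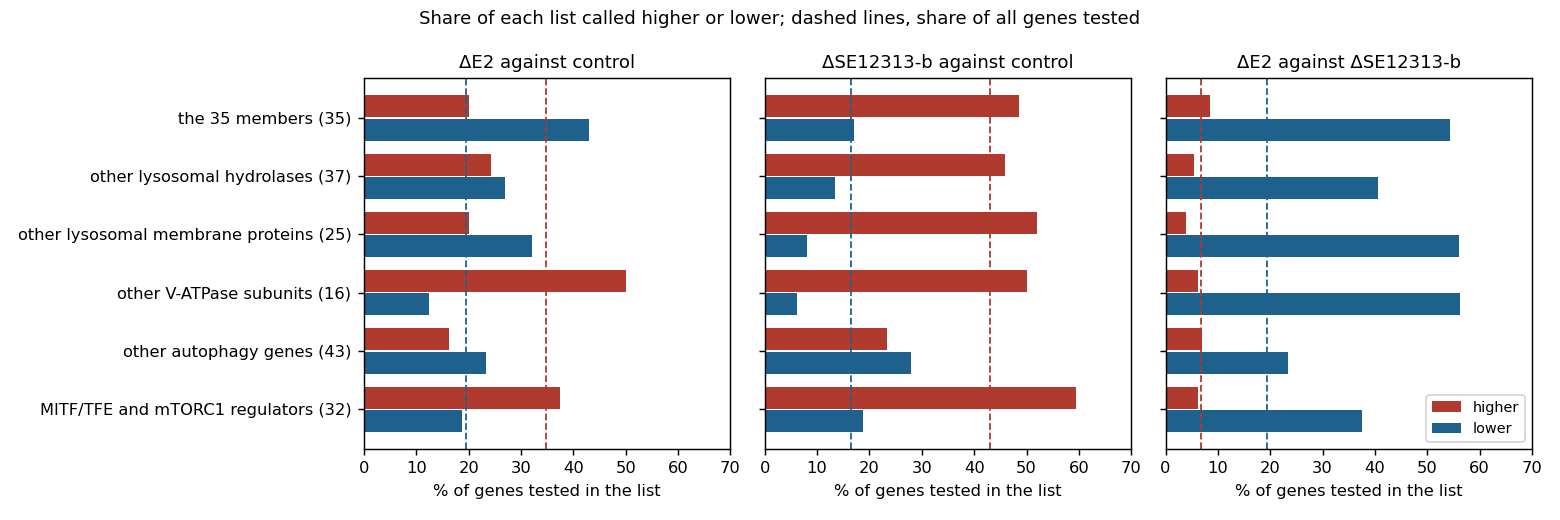
Percent of the tested genes of each list (y axis, number tested in brackets) called higher (red) or lower (blue) at a BH-adjusted p under 0.05 by limma, for ΔE2 (left) and ΔSE12313-b (middle) compared with control and for ΔE2 compared with ΔSE12313-b (right). The dashed lines give the same shares of all genes tested, and in the right panel 54.3% of the members are lower in ΔE2, against 19.3% of all genes.

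A few genes of these lists changed at least 2-fold in both deletions (limma, BH-adjusted p under 0.05 for each gene named here). GGH, which trims glutamate from folates, rose from a mean of 22.3 FPKM in control to 51.7 in ΔE2 and 53.9 in ΔSE12313-b. IDUA, which acts on heparan and dermatan sulfate, fell from 12.2 to 1.70 and 2.20. The cathepsin CTSO stood at 2.48 in control and at 0.238 and 0.075 in the deletions. CTSO reached the filter through the control libraries alone, so it was tested because it was high there, and its values are a description. In the V-ATPase the V0 subunit ATP6V0E2 rose from 4.79 to 17.4 and 18.9. ATP6V0D2, the alternative form of ATP6V0D1, stood at 2.62 in control and at 0.0413 and 0.454 in the deletions. It had 2 reads or fewer in each ΔE2 library and reached the filter in the controls and 1 ΔSE12313-b library. Without the controls ATP6V0D2 would not have been tested, so its values are a description. Of the autophagy genes ATG9B stood at 2.49 in control and at 0.024 and 0.0107 in the deletions. It had 3 reads or fewer in each deleted library and reached the filter through the controls alone, so its values too are a description. ATG16L2 fell from 11.0 to 3.05 and 2.23. Among regulators, FNIP2 rose from 1.71 to 5.25 and 4.11, while the inhibitors of mTORC1 signalling DDIT4 and CASTOR1 fell from 30.3 to 2.89 and 5.47 and from 3.01 to 0.541 and 0.676. Of the membrane proteins 0 changed 2-fold in the same direction in both.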

How the data were processed

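RNA-seq libraries of 2 control, 3 ΔE2 and 3 ΔSE12313-b samples were grouped by their labels. The values deposited by the authors are FPKM per RefSeq transcript of GRCh37, from single-end reads trimmed with Trim Galore 0.4.4 and aligned with STAR 2.5.4b per the labels and methods. The tool, RefSeq release and strand setting behind the FPKM are not given in the sources used here. For its own calls the study counted reads with featureCounts, which were not used here. FPKM steps gave whole reads for 100% of the values checked (tolerance 0.1), hence the depth of each library. One transcript per gene, that with the highest mean FPKM, was kept, and those reaching 0.5 FPKM in 2 or more libraries were tested on log2(FPKM + 0.1) with limma 3.58.1 (R 4.3.3, empirical Bayes with trend, all 8 libraries in 1 fit) and Benjamini-Hochberg adjustment over all genes tested. Every member was named, those past 2-fold in any comparison, TFEB and TFE3 with each library, and at most 2 rises and 2 falls per pathway list among genes past 2-fold in both deletions, 1 of which is not reported here. Members and lists were chosen with earlier results of these data known. Of 21 alternatives, centring on neighbours and taking the 2 controls as 1 library were chosen after the data had been seen. The fit was tested on simulated reads with the same spread in every library. That test cannot show how the fit does with the unequal spread of controls and clones.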

Additional observations from a re-analysis of the deposited data

Results flagged for a closer look

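NAGLU and SQSTM1 were picked out because each was called lower in ΔE2 and higher in ΔSE12313-b than in the shared controls. The log2 difference of ΔE2 from ΔSE12313-b was -0.76 for NAGLU and -0.66 for SQSTM1. Since the genes were chosen on the same libraries, these differences describe the choice and are no independent test of it. The rise of NAGLU in ΔSE12313-b came to 0.11 with centred libraries (limma, BH-adjusted p = 0.448), and that of SQSTM1 turned to -0.05 (limma, BH-adjusted p = 0.527).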

How the results depend on the processing

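The 15 members lower in ΔE2 came to 9 with the 2 controls as 1 library, 5 at 2-fold, 9 at 1.5-fold and 8 to 16 with single libraries left out, and the 7 higher to 1 at 2-fold and 7 to 8 with single libraries left out. In ΔSE12313-b the 17 higher came to 8 with centred libraries, 8 with quantile normalization, 10 with neighbour centring, 10 with the controls as 1 library, 5 at 2-fold, 10 at 1.5-fold and 10 to 18 with single libraries left out. The 6 lower there came to 12 centred, 15 with quantile normalization, 1 at 2-fold and 4 to 8. Between the deletions the 19 lower came to 12 centred, 12 with quantile normalization, 8 with neighbour centring, 16 with the deletions alone in the fit and 12 to 20 with single libraries left out. The 3 higher there came to 0 with neighbour centring and 2 to 3 with single libraries left out. A replicate block gave 8 higher and 11 lower in ΔE2, 12 and 6 in ΔSE12313-b and 2 and 13 between the deletions, but same-numbered libraries correlated at -0.08 to 0.107 and share only a number. Directions turned with quantile normalization for CTSD (-0.27) and TFE3 (-0.29) in ΔE2 and for LAMP1 (-0.42), NPC1 (-0.40), CTSA (-0.34), GUSB (-0.11), ATP6AP1 (-0.11) and SQSTM1 (-0.31) in ΔSE12313-b, with centring for NPC1 (-0.24), UVRAG (-0.01) and SQSTM1 (-0.05), and with neighbours for LIPA (-0.09) and ATP6AP1 (-0.08). The counts at a fold are lower by construction, and the cause of the other changes was not tested. With 2 controls that differ by little more than counting noise, the spread between control cultures is not known here.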
